A study of Mus musculus with 4 samples.

Results

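The genes described here are targets of the peroxisome proliferator-activated receptors (PPARs) and enzymes of fatty acid oxidation, listed by gene symbol. Of the 42 listed genes, 40 had a probe set assigned to that gene alone, out of 18193 genes so measured on the arrays, and the brightest such probe set stands for each gene. Acsl1 and Ucp2 had no probe set of their own in the annotation used and were not analysed here. Counts cover genes that reached a level floor of 6.39, the median of all values, on at least 1 array, as 37 of the 40 members did. Ppargc1a, Acot1 and Pdk4 stayed below it on every array.

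Macrophages were taken from the peritoneal cavity of mice given thioglycolate, which draws cells into the cavity, and were kept for 18 hours on slides. The 4 groups were cells labelled Dap12-KO with interleukin-4 (IL-4), Dap12-KO untreated, wild type (WT) with IL-4 and WT untreated, with 1 array for each, so a difference between 2 arrays has no replicate check and is given as a value with no test. DAP12 is the adaptor encoded by Tyrobp that links partner receptors to ITAM signalling. The labels give no age, sex, strain or number of mice, do not say how the gene was disrupted, and the series text calls the perturbation a knockdown while its title calls it a knockout. All levels are log2 values made by the depositors with RMA, and a log2 difference of 1 is a 2-fold difference.

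The targeted gene and the array scale limit every comparison between genotypes. Tyrobp read 13.27 with IL-4 and 14.03 untreated on the arrays labelled Dap12-KO, against 14.13 with IL-4 and 14.39 untreated in WT. That is above 99.4% of the probe sets or more on each array, so the signal does not bear out the label, though a probe set outside the deleted part would check nothing. All 10 macrophage markers examined, among them Csf1r, Adgre1 and Cd68, were above the floor on every array. The IL-4 array labelled Dap12-KO was compressed: the interquartile range of its values was 2.54 log2 units, against 3.19 to 3.25 on the other arrays. The median gene therefore differed by −0.40 between both arrays labelled Dap12-KO and by −0.39 between both IL-4 arrays, but by −0.03 between both WT arrays and by 0.03 between both untreated arrays. Cyclic loess fits and removes, array by array, the trend of such differences with level. On those values these medians were 0.07, 0.11, 0.01 and 0.09. Counts and medians that use the compressed array are given on both scales.

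PPARs are nuclear receptors that bind fatty acids and their derivatives and, paired with RXR, switch on genes for fatty acid uptake, storage and breakdown. Fatty acids are carried in the cytosol by binding proteins, activated to acyl-CoA, moved into mitochondria by the carnitine shuttle and shortened there by repeated rounds of oxidation, while peroxisomes handle very long and branched chains. In mouse macrophages, alternative activation by IL-4 is known for a programme of fatty acid oxidation that involves STAT6, PPARs and the coactivator PGC-1 beta.

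With IL-4 in wild type cells, a pair of fatty acid binding protein genes had lower signal and the coactivator gene Ppargc1b had higher signal, while the oxidation enzymes moved little. Of 37 members, 1 was at least 2-fold higher with IL-4, where 1.21% of all 12767 genes were, and 2 were at least 2-fold lower, where 1.25% of all genes were. The median over members was −0.14. On the arrays labelled Dap12-KO, 0 members were 2-fold higher with IL-4 (all genes 8.04%) and 11 were lower (all genes 17.6%), with a median of −0.63 beside −0.40 over all genes. After cyclic loess 1 of 36 members was higher there (all genes 9.95%) and 5 were lower (all genes 6.07%), with a median of −0.20 beside 0.07 over all genes. In WT the same 1 member was higher after cyclic loess (all genes 1.33%) and the same 2 were lower (all genes 1.13%).

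**Figure D1:**
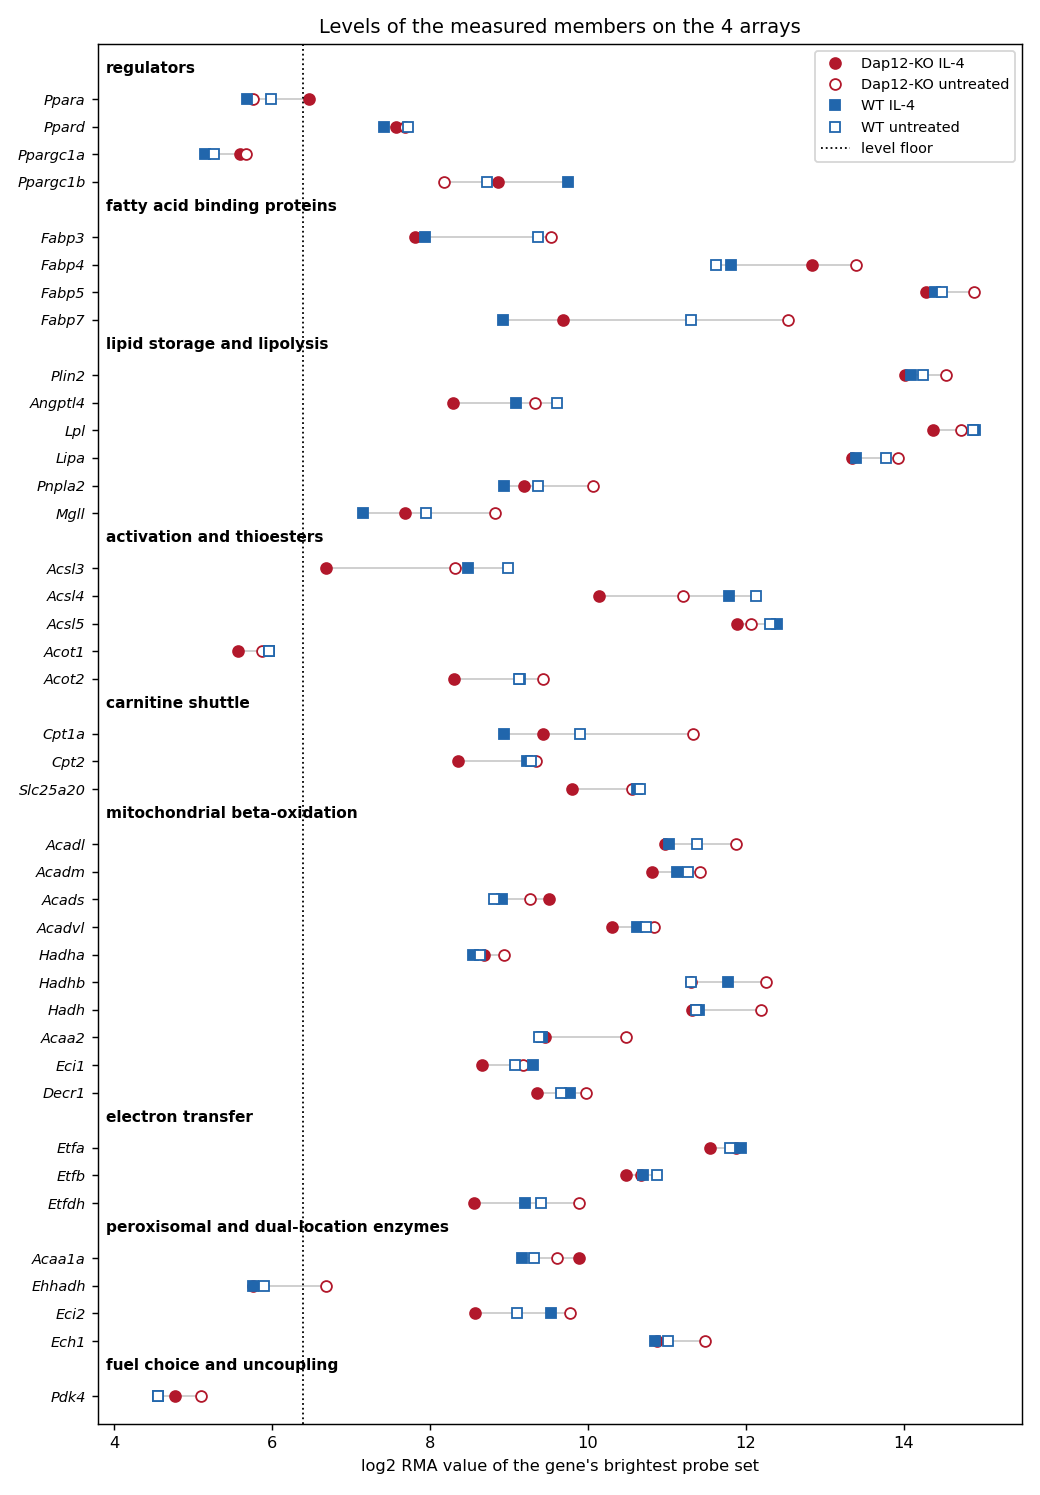
Log2 values of the 40 measured members on the 4 arrays, 1 row per gene, grouped by role; the dotted line is the level floor of 6.39. Fabp7 spans the widest range, with both untreated arrays (12.53 and 11.30) to the right of both IL-4 arrays (9.68 and 8.92).

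Among the regulators, Ppargc1b, which encodes PGC-1 beta, a coactivator of mitochondrial genes, was the 1 member at 2-fold higher with IL-4 in wild type. It read 8.86 with IL-4 and 8.18 untreated on the arrays labelled Dap12-KO, and 9.75 with IL-4 and 8.72 untreated in WT. The IL-4 array was thus the higher in each genotype, by 0.68 on the arrays labelled Dap12-KO and by 1.03 in WT, or by 1.34 and 1.07 after cyclic loess. Ppard, the PPAR isotype found in most tissues, read 7.57 with IL-4 and 7.68 untreated on the arrays labelled Dap12-KO and 7.41 with IL-4 and 7.72 untreated in WT, values that lie close together. The sign of its IL-4 difference on the arrays labelled Dap12-KO depended on the scale, at −0.11 as deposited and 0.30 after cyclic loess. It also depended on the probe set, as a second, dimmer Ppard probe set differed by 0.70 there and by 0.19 in WT. After cyclic loess those values were 0.52 and 0.23, where the probe set used was at −0.26 in WT. Ppara, the isotype best known from liver, exceeded the floor on a single array: it read 6.46 with IL-4 and 5.76 untreated on the arrays labelled Dap12-KO, against 5.69 with IL-4 and 5.98 untreated in WT. Ppargc1a, which encodes the related coactivator PGC-1 alpha, had 5 probe sets, all below the floor, and its brightest read 5.59 with IL-4 and 5.67 untreated on the arrays labelled Dap12-KO and 5.15 with IL-4 and 5.27 untreated in WT. No difference can be read for a gene below the floor. Pparg, the isotype of adipocytes and macrophages, is not a member and differed with IL-4 by 0.35 on the arrays labelled Dap12-KO and by 0.68 in WT, or by 1.005 and 0.72 after cyclic loess.

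The 4 fatty acid binding proteins, which ferry fatty acids through the cytosol, did not move as a family. Fabp7, the isoform first known from brain, read 9.68 with IL-4 and 12.53 untreated on the arrays labelled Dap12-KO, and 8.92 with IL-4 and 11.30 untreated in WT. It was lower on the IL-4 array of each genotype, 7.21-fold on the arrays labelled Dap12-KO and 5.18-fold in WT, which are −2.85 and −2.37 on the log2 scale, or −2.22 and −2.34 after cyclic loess. Fabp3, the heart isoform, read 7.81 with IL-4 and 9.53 untreated on the arrays labelled Dap12-KO, and 7.94 with IL-4 and 9.37 untreated in WT. It too was lower with IL-4 in each genotype, by 3.30-fold on the arrays labelled Dap12-KO and 2.69-fold in WT, which are −1.72 and −1.43 on the log2 scale, or −1.09 and −1.39 after cyclic loess. A second, dimmer Fabp3 probe set did not repeat this, with IL-4 differences of 0.26 on the arrays labelled Dap12-KO and −0.27 in WT.

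Fabp4, the isoform of adipocytes and macrophages and a textbook PPAR gamma target, followed genotype label rather than IL-4. It read 12.83 with IL-4 and 13.39 untreated on the arrays labelled Dap12-KO, and 11.82 with IL-4 and 11.62 untreated in WT. Both arrays labelled Dap12-KO lay above both WT arrays, by 1.01 with IL-4 and by 1.76 untreated, or by 1.57 and 1.85 after cyclic loess. All 4 Fabp4 probe sets had that order, with differences from 0.30 to 2.47 with IL-4 and from 1.04 to 3.20 untreated, so the size rests on the probe set while the direction does not. Fabp5, the epidermal isoform, which macrophages also carry, read 14.27 with IL-4 and 14.88 untreated on the arrays labelled Dap12-KO and 14.39 with IL-4 and 14.49 untreated in WT, with no comparison at 2-fold. Adipose tissue in the harvest would also carry Fabp4. Of 6 adipocyte markers measured, Cidec, Lep and Pck1 were below the floor on all arrays, Thrsp was between 7.08 and 7.48 and Retn between 6.60 and 7.58. Adiponectin (Adipoq) read 6.56 with IL-4 and 4.91 untreated on the arrays labelled Dap12-KO and 5.69 with IL-4 and 4.58 untreated in WT. The part of adipose RNA in the Fabp4 values was not tested. The mean over the 6 markers was 6.44 with IL-4 and 5.70 untreated on the arrays labelled Dap12-KO and 5.71 with IL-4 and 5.60 untreated in WT.

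The carnitine shuttle carries long-chain acyl groups into mitochondria, and its entry enzyme stood apart from its partners. Cpt1a, the rate-setting carnitine palmitoyltransferase of the outer membrane, read 9.43 with IL-4 and 11.33 untreated on the arrays labelled Dap12-KO, and 8.94 with IL-4 and 9.90 untreated in WT. The untreated array labelled Dap12-KO was the highest, and the IL-4 array was the lower in each genotype, by 1.90 on the arrays labelled Dap12-KO and by 0.95 in WT, or by 1.24 and 0.92 after cyclic loess. All 3 Cpt1a probe sets had both features, with IL-4 differences from −1.90 to −1.76 on the arrays labelled Dap12-KO and from −0.95 to −0.54 in WT. Cpt2, which rebuilds acyl-CoA inside the mitochondrion, read 8.35 with IL-4 and 9.34 untreated on the arrays labelled Dap12-KO and 9.22 with IL-4 and 9.27 untreated in WT. Slc25a20, the carnitine-acylcarnitine carrier between them, read 9.79 with IL-4 and 10.55 untreated on the arrays labelled Dap12-KO and 10.62 with IL-4 and 10.66 untreated in WT. For both, 3 arrays lay together and the compressed array read lower, and after cyclic loess their IL-4 differences there were −0.32 for Cpt2 and −0.12 for Slc25a20.

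IL-4 was also tested over both genotypes with limma, with genotype as a block, since each treatment then has 2 arrays. With 1 residual degree of freedom the fit gave every gene the same standard error, 0.42, so its calls follow size alone. That 1 degree of freedom is the difference of the IL-4 responses between genotypes, which uses the compressed array and is not scatter among replicates. The p-values reflect no more than how these 4 arrays scatter, which can be technical. Of 37 members, 0 rose and 3 fell at an adjusted p under 0.05, where 0.54% and 1.1% of all genes did. Fabp7 fell by 2.61 (limma adjusted p = 4.14e-07, lower with IL-4 in 2 of 2 genotypes), Fabp3 fell by 1.58 (limma adjusted p = 0.0163, 2 of 2) and Cpt1a fell by 1.43 (limma adjusted p = 0.0458, 2 of 2). Ppargc1b had a log2 difference of 0.86 (limma adjusted p = 0.478) and did not pass. On the cyclic loess values limma called 0 of 12446 genes, although 814 had a raw p below 0.05. The smallest adjusted p among members was 0.284, for Fabp7. The IL-4 differences after cyclic loess were −2.28 for Fabp7, −1.24 for Fabp3 and −1.08 for Cpt1a, with a prior of 3.48 degrees of freedom in place of an infinite one.

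**Figure D2:**
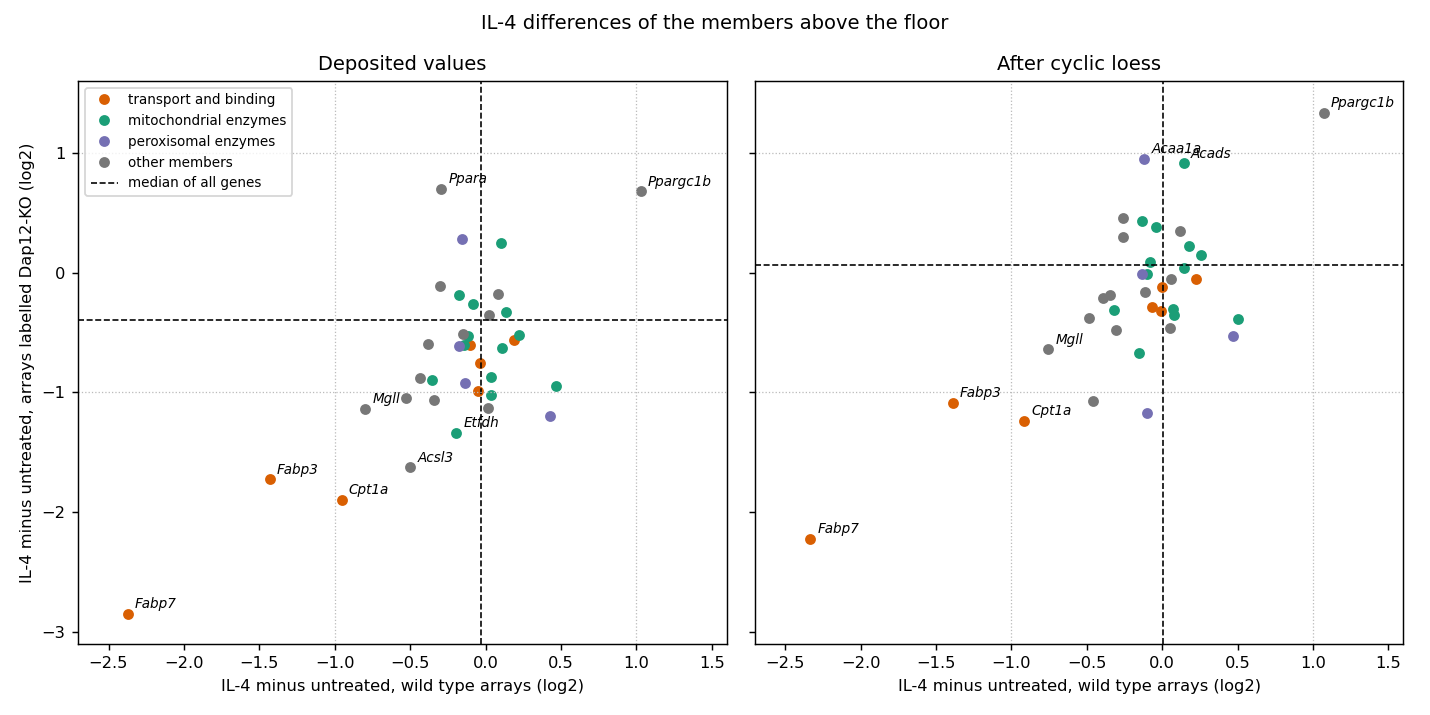
IL-4 minus untreated (log2) in wild type (horizontal axis) and on the arrays labelled Dap12-KO (vertical axis) for the 37 members above the floor, as deposited (left) and after cyclic loess (right); dashed lines mark the median of all genes and dotted lines 2-fold. Fabp7, Fabp3 and Cpt1a lie at the lower left and Ppargc1b at the right on both scales, while most other members move up between the panels.

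The promoter windows of the 3 members that limma called are shown because these genes read lower with IL-4 in both genotypes, and PPAR with RXR and STAT6 are the factors known to join lipid genes to IL-4. The sequences are RefSeq's, build GRCm38.p6, from 250 bases before to 50 bases after the gene's start, on the + strand, which is the gene's own. They come from chr10:57784673-57784972 for Fabp7, chr4:130308488-130308787 for Fabp3 and chr19:3323051-3323350 for Cpt1a. Capitals mark AGGTCA, the repeated hexamer of the PPAR and RXR element, here read on the opposite strand as TGACCT.
Fabp7: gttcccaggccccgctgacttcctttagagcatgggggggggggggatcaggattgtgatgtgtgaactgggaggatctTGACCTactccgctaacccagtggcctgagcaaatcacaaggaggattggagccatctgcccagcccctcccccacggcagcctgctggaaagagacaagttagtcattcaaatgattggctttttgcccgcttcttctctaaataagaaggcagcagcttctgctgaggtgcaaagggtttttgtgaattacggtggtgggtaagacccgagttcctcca
Fabp3: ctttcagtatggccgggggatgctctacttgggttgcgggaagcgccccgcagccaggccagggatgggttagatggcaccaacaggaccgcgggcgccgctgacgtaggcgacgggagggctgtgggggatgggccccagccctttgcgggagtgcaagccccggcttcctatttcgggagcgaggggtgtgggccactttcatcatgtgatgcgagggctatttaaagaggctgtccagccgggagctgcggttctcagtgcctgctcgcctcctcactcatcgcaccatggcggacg
Cpt1a: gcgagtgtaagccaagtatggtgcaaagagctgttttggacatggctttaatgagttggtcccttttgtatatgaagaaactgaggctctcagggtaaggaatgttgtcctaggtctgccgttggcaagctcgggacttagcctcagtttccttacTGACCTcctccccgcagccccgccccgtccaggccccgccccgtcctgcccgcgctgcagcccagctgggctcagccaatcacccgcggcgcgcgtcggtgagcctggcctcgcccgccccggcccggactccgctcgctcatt

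Relative to the gene start, the hexamer began at position −171 in Fabp7 and at −94 in Cpt1a, and Fabp3 held none. Windows were at hand for 35 of the 42 listed genes, 37 windows in all, and 5 of the 37 (13.5%) held AGGTCA on either strand, against 16.3% of all 32851 windows. Besides Fabp7 and Cpt1a these were Acadm, Acadvl and Plin2. A pair of hexamers in the same direction 1 base apart, the full element, was in 0 of the 37 windows and in 0.0396% of all windows. TTC followed 4 bases on by GAA, the core of STAT6 sites, was in 0 of the 37 windows and in 6.95% of all windows. The motifs are letter matches in a short window, and the single hexamer overlaps the full element wherever that is present.

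Lipid storage and lipolysis genes leaned lower with IL-4 in both genotypes, without reaching 2-fold in wild type. All 6 were lower with IL-4 for the Dap12-KO label, as were 5 of 6 in WT, with medians of −0.74 and −0.41, where 66.1% and 56.3% of all genes were lower. After cyclic loess the counts were the same, where 45.2% and 48.8% of all genes were lower, and the median on the arrays labelled Dap12-KO was −0.20. Mgll, the lipase of the last step from monoglyceride to fatty acid, read 7.68 with IL-4 and 8.82 untreated on the arrays labelled Dap12-KO and 7.15 with IL-4 and 7.95 untreated in WT, and the IL-4 array was the lower in each genotype. Of 4 Mgll probe sets, a second had the same order, and the other two had IL-4 differences of 0.34 and 0.09 on the arrays labelled Dap12-KO. Angptl4, a secreted inhibitor of lipoprotein lipase, read 8.29 with IL-4 and 9.33 untreated on the arrays labelled Dap12-KO and 9.08 with IL-4 and 9.61 untreated in WT, differences of −1.05 and −0.52 that were −0.38 and −0.48 after cyclic loess. Lpl itself, which releases fatty acids from lipoproteins, was between 14.37 and 14.90 on all arrays. Pnpla2, which opens triglyceride stores, Lipa, the lysosomal acid lipase, and Plin2, which coats lipid droplets, had no comparison at 2-fold and differed with IL-4 by −0.88, −0.59 and −0.51 on the arrays labelled Dap12-KO and by −0.43, −0.38 and −0.15 in WT. After cyclic loess the differences on the arrays labelled Dap12-KO were −0.21, −0.19 and −0.17.

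Of the acyl-CoA synthetases, which activate fatty acids for storage or breakdown, Acsl3 and Acsl4 read lower on the arrays labelled Dap12-KO. Acsl3 read 6.69 with IL-4 and 8.31 untreated on the arrays labelled Dap12-KO, against 8.49 with IL-4 and 8.99 untreated in WT. Acsl4, which prefers arachidonate, read 10.14 with IL-4 and 11.20 untreated on the arrays labelled Dap12-KO, against 11.79 with IL-4 and 12.13 untreated in WT. For each gene both arrays labelled Dap12-KO lay below both WT arrays. With IL-4 these were the 2 members at least 2-fold lower on the array labelled Dap12-KO than in WT (all genes 17.6%), at −1.80 for Acsl3 and −1.65 for Acsl4, or −1.21 and −1.005 after cyclic loess (all genes 5.51%). Untreated, the probe sets used differed by −0.67 and −0.93, and every other probe set of the pair by more, from −1.90 to −1.04 for Acsl3 and at −1.51 and −1.47 for Acsl4. Acsl5 was between 11.88 and 12.39 on all arrays.

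Of the thioesterases, which undo that activation, Acot2 was above the floor and Acot1 below it. Acot2, the mitochondrial one, read 8.30 with IL-4 and 9.43 untreated on the arrays labelled Dap12-KO and 9.14 with IL-4 and 9.13 untreated in WT. Only the compressed array stood apart, and its IL-4 difference of −1.13 was −0.47 after cyclic loess. Acot1, its cytosolic near-copy, was between 5.56 and 5.96, and probes may not separate these paralogs. Pdk4, a kinase of pyruvate dehydrogenase and a known PPAR target, read 4.78 with IL-4 and 5.10 untreated on the arrays labelled Dap12-KO. In WT it read 4.56 both with IL-4 and untreated, and all these values were under the floor.

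**Figure D3:**
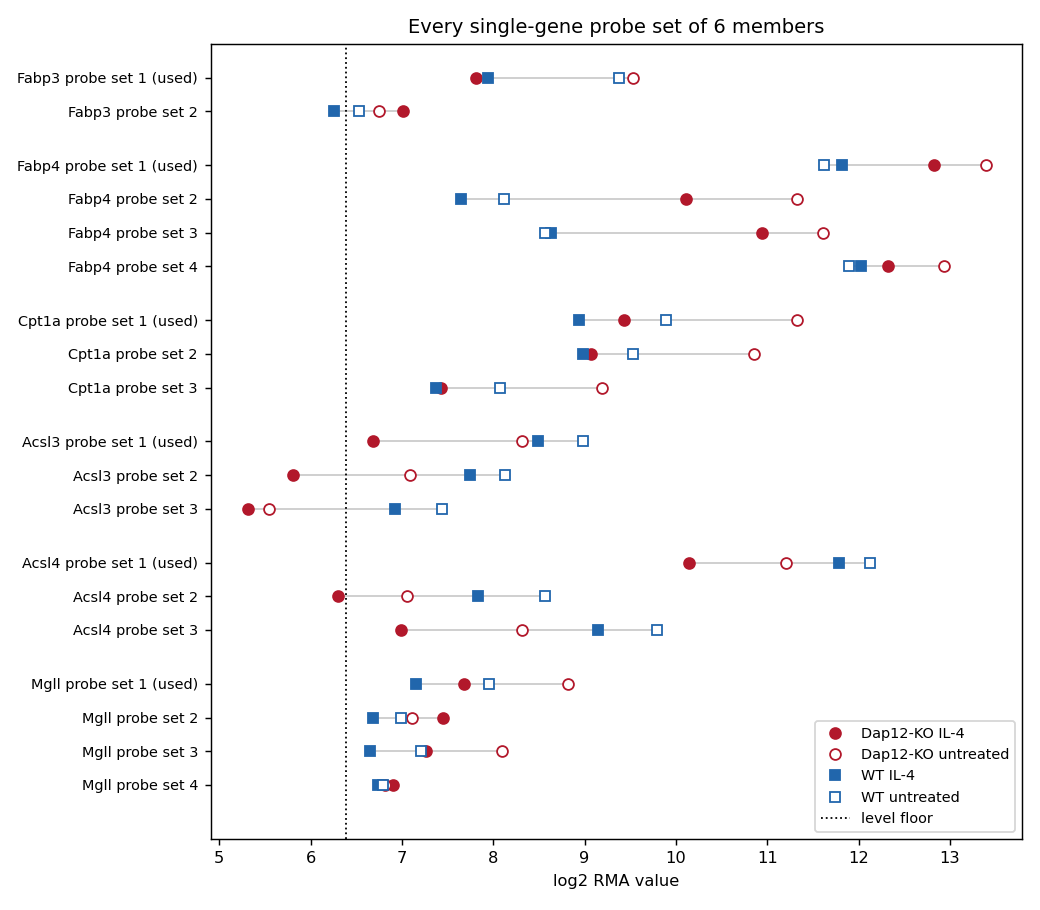
Log2 values of every probe set assigned to Fabp3, Fabp4, Cpt1a, Acsl3, Acsl4 or Mgll alone, 1 row per probe set, with the level floor dotted. All Fabp4 rows have both Dap12-KO arrays to the right of both WT arrays and all Acsl3 and Acsl4 rows have them to the left, while the second Fabp3 row lacks the IL-4 gap of the first.

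The mitochondrial enzymes had small IL-4 differences in wild type, all below 2-fold. Of 13 mitochondrial enzymes, 7 were higher and 6 lower with IL-4 in WT, with a median of 0.04 and a range from −0.35 (Acadl, the long-chain acyl-CoA dehydrogenase) to 0.47 (Hadhb, the beta subunit of the trifunctional protein). The 7 transport and binding genes, which are the binding proteins and the carnitine shuttle, ran from −2.37 to 0.19 in WT with a median of −0.10, so their low end came from Fabp7, Fabp3 and Cpt1a. The 4 peroxisomal and dual-location enzymes ran from −0.17 to 0.43 with a median of −0.15. At 2-fold in WT, 2 of 7 transport and binding genes were lower and 0 of 13 mitochondrial and 0 of 4 peroxisomal enzymes moved either way. On the arrays labelled Dap12-KO the medians with IL-4 were −0.99 for transport and binding, −0.61 for mitochondrial and −0.77 for peroxisomal enzymes, beside −0.40 for all genes. After cyclic loess they were −0.32, 0.04 and −0.27, beside 0.07 for all genes. The difference between these classes was not tested.

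Within the mitochondrial list the IL-4 differences on the arrays labelled Dap12-KO varied among enzymes of the same step. Among the acyl-CoA dehydrogenases, which open each round, Acadl differed by −0.90, Acadm (medium chains) by −0.61, Acadvl (very long chains) by −0.53 and Acads (short chains) by 0.25. After cyclic loess these values were −0.31, −0.01, 0.09 and 0.92. The trifunctional protein subunits Hadha and Hadhb differed by −0.26 and −0.95, the short-chain dehydrogenase Hadh by −0.87, and the auxiliary enzymes for unsaturated chains Eci1 and Decr1 by −0.52 and −0.63. After cyclic loess Hadhb and Hadh kept their sign by the probe sets used, at −0.39 and −0.31, while Hadha, Eci1 and Decr1 turned to 0.38, 0.15 and 0.04. Further probe sets above the floor read 0.0002 and −0.79 for Hadhb, 0.26 for Hadh and −0.81 for Decr1. The sign after cyclic loess thus depended on the probe set for these genes. Acaa2, the thiolase that closes the round, read 9.46 with IL-4 and 10.48 untreated on the arrays labelled Dap12-KO and 9.42 with IL-4 and 9.38 untreated in WT. There the untreated array labelled Dap12-KO stood above the other 3, which lay close together, and its IL-4 difference on the arrays labelled Dap12-KO was −1.02, or −0.36 after cyclic loess.

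Electrons from the dehydrogenases pass through Etfa and Etfb to Etfdh, which hands them to ubiquinone. Etfdh read 8.55 with IL-4 and 9.89 untreated on the arrays labelled Dap12-KO and 9.21 with IL-4 and 9.40 untreated in WT, an IL-4 difference of −1.34 on the arrays labelled Dap12-KO that was −0.67 after cyclic loess. Etfa and Etfb differed there by −0.33 and −0.19, and turned to 0.22 and 0.43 after cyclic loess.

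The peroxisomal and dual-location genes were mixed. Eci2, an isomerase for unsaturated chains, read 8.57 with IL-4 and 9.77 untreated on the arrays labelled Dap12-KO and 9.53 with IL-4 and 9.10 untreated in WT. IL-4 differences thus had opposite signs, −1.20 on the arrays labelled Dap12-KO and 0.43 in WT, and kept them after cyclic loess at −0.53 and 0.47. Acaa1a, the peroxisomal thiolase, was between 9.16 and 9.89 by the probe set used, and its second probe set moved the other way on the arrays labelled Dap12-KO, at −1.26 against 0.28, or −1.35 against 0.95 after cyclic loess. A close copy, Acaa1b, may share its probes, so its values are uncertain. Ech1, which shifts double bonds, was between 10.84 and 11.48. Ehhadh, the peroxisomal bifunctional enzyme, exceeded the floor only on the untreated array labelled Dap12-KO, at 6.68.

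Without treatment, the array labelled Dap12-KO carried more signal of most oxidation genes than the wild type array. Of 37 members, 27 were higher (all genes 52.6%) with a median of 0.29 beside 0.03 over all genes, and after cyclic loess 28 of 36 were higher (all genes 59%) with a median of 0.40 beside 0.09. At 2-fold, 4 members were higher (all genes 3.12%), namely Fabp4 (1.76), Cpt1a (1.43), Fabp7 (1.23) and Acaa2 (1.11), and 0 were lower (all genes 3.41%). After cyclic loess 5 were higher, with Hadhb added (all genes 3.74%), and 0 were lower (all genes 2.94%). With the median over a gene's probe sets as deposited, 3 of 36 members were higher and 2 lower, and the share over all genes was not counted. By the probe sets used, all 10 genes of mitochondrial beta-oxidation were higher, from 0.10 to 1.11. So were all 4 peroxisomal and dual-location enzymes, from 0.29 to 0.78. The 0.78 was Ehhadh, which exceeded the floor only on the untreated array labelled Dap12-KO. Its place here and among the 27 and the 28 thus comes from the array where it was high. Without Ehhadh the top of that range was Eci2 at 0.67. A second Decr1 probe set above the floor was lower, at −0.22, or −0.18 after cyclic loess, while further ones of Acaa2, Hadh and Hadhb were higher. Next to Acaa2 came Hadhb at 0.94, read as 12.25 on the array labelled Dap12-KO against 11.31 in WT, and Hadh at 0.82, read as 12.19 against 11.37 in WT. The 10 members that were lower as deposited were Acsl4 (−0.93), Acsl3 (−0.67), Ppargc1b (−0.54), Angptl4 (−0.28), Acsl5 (−0.25), Ppara (−0.22), Etfb (−0.20), Lpl (−0.15), Slc25a20 (−0.11) and Ppard (−0.04). Ppara was below the floor on both untreated arrays, so its difference cannot be read, and Ppard was higher by 0.02 after cyclic loess. The deposited differences here use the untreated arrays only. The cyclic loess fit, the floor and the choice of probe set use all 4 arrays, the compressed one included. Ppara reached the floor only on the compressed array.

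Markers of resident cavity macrophages, mast cells and B cells moved with this comparison. The fibroblast markers above the floor, Col1a2, Col3a1 and Dcn, moved against it. The median of the resident macrophage markers was higher by 0.96 on the untreated array labelled Dap12-KO than on the WT one, over 8 markers that were all above the floor on some array, and Prg4, for example, read 12.68 against 11.47 in WT. The mean over the 8 markers was 8.49 with IL-4 and 8.96 untreated on the arrays labelled Dap12-KO and 8.19 with IL-4 and 7.96 untreated in WT. Of 6 mast cell markers, Cma1, Cpa3 and Tpsb2 were above the floor and differed by 1.34, 0.93 and 0.86 untreated, while Mcpt4, Fcer1a and Kit were below it on all arrays. Their mean was 6.41 with IL-4 and 6.91 untreated on the arrays labelled Dap12-KO and 6.25 with IL-4 and 6.30 untreated in WT. Of 5 measured B cell markers, the median difference was 0.45, with Ms4a1 at 1.13 and Cd79b at 0.95. Their mean was 7.74 with IL-4 and 7.88 untreated on the arrays labelled Dap12-KO and 7.43 with IL-4 and 7.32 untreated in WT. Of 8 mesothelial and fibroblast markers, 4 were above the floor on some array, and the median difference untreated was −0.15. Col3a1 differed by −1.30, Col1a2 by −1.26 and Dcn by −1.08, while Krt19, below the floor on both untreated arrays, differed by 0.13. The medians of the T cell, neutrophil and eosinophil markers were 0.002, −0.02 and 0.05, with markers below the floor on both untreated arrays included. Of those above it on both, Cd3e and Cd8a differed by −0.07 and 0.02, S100a8 and Camp by −0.57 and 0.18, and Siglecf by −0.39. In bulk RNA a different share of a cell type and a different amount of RNA per cell cannot be told apart, and the part of these markers in the result for the oxidation genes and Fabp4 was not tested. The 10 general macrophage markers had a median difference of 0.18 there, with a wide range, from −0.68 for Cd14 to 1.97 for Mertk. Mertk read 11.29 on the untreated array labelled Dap12-KO against 9.32 in WT.

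With IL-4 the direction of the genotype comparison depended on the scale. As deposited, 25 of 37 members were lower on the array labelled Dap12-KO than in WT (all genes 65.8%) with a median of −0.13 beside −0.39 over all genes, and after cyclic loess 26 of 36 were higher (all genes 57.7%) with a median of 0.32 beside 0.11. At 2-fold as deposited, 1 member was higher, Fabp4 (all genes 10.9%), and 2 were lower, Acsl3 and Acsl4. After cyclic loess 6 were higher, namely Fabp4, Fabp7, Mgll, Cpt1a, Acads and Acaa1a (all genes 12.6%), and the same 2 were lower. The second Acaa1a probe set was at −1.40 there, against 1.46 by the one used. By the probe sets used, all 13 mitochondrial enzymes were higher after cyclic loess, from 0.07 to 1.32, where 3 of 13 were as deposited. Other probe sets above the floor were lower there, at −1.18 for Decr1, −0.47 for Hadhb and −0.23 for Acaa2. Further ones were higher, at 0.73 for Hadhb, 0.76 for Acaa2 and 1.20 for Hadh. This comparison shares its arrays with the IL-4 comparisons, so the counts are not independent of those above.

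**Figure D4:**
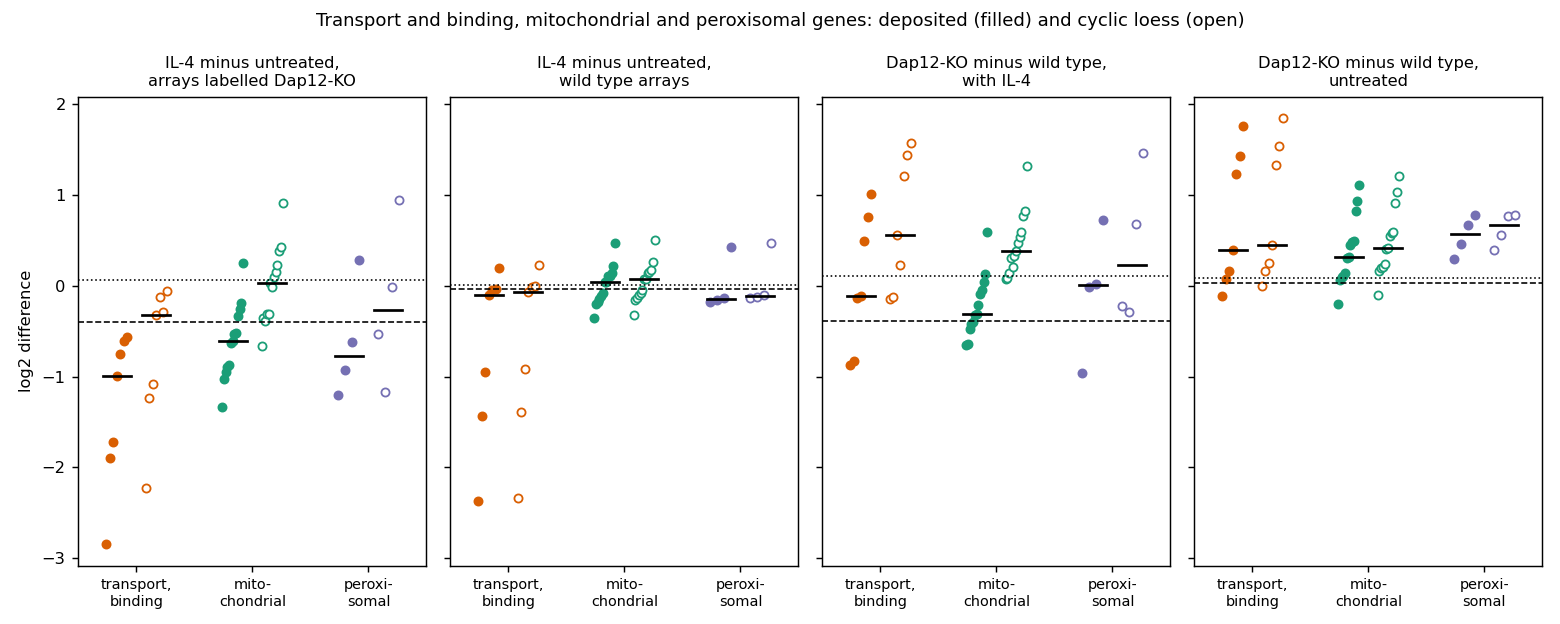
Log2 differences of the 7 transport and binding, 13 mitochondrial and 4 peroxisomal genes in the 4 comparisons of 2 arrays, as deposited (filled) and after cyclic loess (open). Bars are class medians, the dashed line is the median of all genes as deposited and the dotted line that after cyclic loess; the filled and open points differ most in the panels of genotype with IL-4 and of IL-4 on the arrays labelled Dap12-KO, which use the compressed array.

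The difference of the IL-4 responses, that on the arrays labelled Dap12-KO minus that in WT, had a median over members of −0.48 beside −0.36 over all genes. At 2-fold 0 members were higher (all genes 8.15%) and 6 were lower (all genes 14.8%), namely Eci2 (−1.63), Hadhb (−1.42), Etfdh (−1.14), Acot2 (−1.14), Acsl3 (−1.13) and Acaa2 (−1.06). After cyclic loess none of these 6 was at 2-fold, while 1 other member was higher, Acaa1a (all genes 9%), and 1 was lower, Ehhadh (all genes 5.75%). The median was −0.02 beside 0.07. By its second probe set Acaa1a was at −1.76 there, against 1.07 by the one used. Ehhadh was above the floor on 1 array only, so this count, and its place among the 5 lower with IL-4 after cyclic loess, come from the array where it was high. The 3 genes that limma called differed by −0.94 (Cpt1a), −0.48 (Fabp7) and −0.29 (Fabp3), or −0.32, 0.11 and 0.30 after cyclic loess.

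The wider lipid pathway, 105 further genes with 86 above the floor, was looked at in the same way. With IL-4 in WT, 1 was 2-fold higher (all genes 1.21%) and 3 were lower (all genes 1.25%), and their median was −0.11. Acss2, the cytosolic enzyme that makes acetyl-CoA from acetate for lipid synthesis, differed by −1.65, the elongase Elovl6 by −1.14 and the desaturase Fads1 by −1.13, and Acss1, the mitochondrial acetate enzyme, by 1.09. Both acetate enzymes kept their sign on the arrays labelled Dap12-KO, at −1.56 for Acss2 and 0.46 for Acss1, or −1.31 and 1.13 after cyclic loess. Fatty acid synthesis genes had a median of −0.29 in WT with 9 of 13 lower, beside 10 of 15 other peroxisomal and 9 of 14 other mitochondrial genes lower with medians of −0.08 and −0.05, where 56.3% of all genes were lower. The largest differences in those lists were Abcd2, an importer of very long chains into peroxisomes, at 0.88, and the enzyme Mcee at −0.21. Among further regulators Pparg (0.68), the oxysterol receptor Nr1h3 (−0.54) and the corepressor Nrip1 (0.33) led, and among uptake and storage genes Dbi, which binds acyl-CoA, at −0.60 and Abhd5, the coactivator of the triglyceride lipase, at −0.96.

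Untreated, the wider list also held more oxidation genes that read higher on the array labelled Dap12-KO than lower. On the array labelled Dap12-KO 12 of 14 other mitochondrial oxidation genes and 13 of 15 other peroxisomal genes were higher than in WT, with medians of 0.38 and 0.49, where 52.6% of all genes were higher. Abcd2, at 8.66 against 6.97 in WT, the carnitine octanoyltransferase Crot, at 9.98 against 8.95, and the peroxisomal lyase Hacl1, at 7.57 against 6.56, were at 2-fold, as was the PPAR partner Rxra at 9.55 against 8.41 in WT. Fatty acid synthesis genes leaned the other way, with 11 of 13 lower and a median of −0.18 (8 of 13 and −0.12 after cyclic loess), led by the desaturase Scd2 at 10.90 against 12.63 in WT. Acot7, a thioesterase that prefers arachidonoyl-CoA, was at 8.95 against 10.98 in WT, while Acot13, another thioesterase, was at 10.21 against 9.15 in WT. Of all 86 genes 5 were 2-fold higher and 2 lower, where 3.12% and 3.41% of all genes were.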

How the data were processed

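Gene expression was measured on 1 Affymetrix array per group, from total RNA labelled with biotin after 2 cycles of amplification, per the labels' protocols. The deposited values are log2 expression per probe set, made by the authors with RMA, per the submitters' processing notes; its version and background settings are not given in the sources used here, and no probe-level files were used. The 4 arrays differ in their distributions, so the deposited values were not brought to a common one, which affects every comparison that uses the compressed array. Gene names come from the platform annotation at GEO, and Entrez IDs gave the current symbols, and the brightest single-gene probe set by its mean over 4 arrays was taken. Members and lists were chosen with earlier results of these data known.

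Differences between 2 arrays carry no test. A count takes genes with a difference of at least 1 on the log2 scale whose highest value reached the floor of 6.39. The IL-4 effect was fitted with limma 3.58.1 (R 4.3.3) over all 12767 such genes, with a genotype block and p-values adjusted by Benjamini-Hochberg at 0.05, after the fit was tested on simulated data. Scale was checked with limma's cyclic loess, quantile normalization and median centring. The text names all members by role and, of the wider list, those with the largest differences per sub-list. The genes in the probe set plot and the promoters printed were chosen after their values were seen. Promoter windows are RefSeq's, build GRCm38.p6. Precision is limited by the 4 arrays.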

Additional observations from a re-analysis of the deposited data

Results flagged for a closer look

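For 13 members, by the probe set used, the IL-4 difference had opposite signs on the arrays labelled Dap12-KO and in WT. Each rests on 1 array per group, and the difference was not tested. The share over all genes was not counted, so the 13 cannot be read as particular to the members. The median gene was at −0.40 on the arrays labelled Dap12-KO and at −0.03 in WT. Some WT differences were small, at 0.01 for Acot2, 0.03 for Lpl and 0.04 each for Hadh and Acaa2. By the probe sets above the floor that were not used, Acaa2, Hadh and Lpl were lower with IL-4 in both genotypes. Hadhb, Decr1 and Acot2 kept opposite signs by theirs, and Fabp4 had both patterns. The IL-4 difference on the arrays labelled Dap12-KO minus that in WT was −1.63 for Eci2, −1.42 for Hadhb, −1.14 for Acot2, −1.06 for Acaa2, −0.91 for Hadh, −0.75 for Fabp4, −0.74 for Eci1, −0.74 for Decr1, −0.47 for Etfa, −0.38 for Lpl and −0.26 for Acsl5. It was positive for Ppara, at 0.996, and Acaa1a, at 0.44, though the second Acaa1a probe set was at −1.62. Ppara was above the floor on 1 array only, so its difference cannot be read; it is among the 13 and the 9. After cyclic loess 9 of the 13 still had opposite signs, and Acsl5, Eci1, Decr1 and Etfa did not.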

How the results depend on the processing

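Each group has 1 array and the labels carry no replicate numbers, so the 1 block available was genotype, which the limma fit holds. The count of members at 2-fold moved with the threshold. At 3-fold it was 4 (2-fold 11) for IL-4 on the arrays labelled Dap12-KO, 1 (3) for IL-4 in WT, 1 (4) for genotype untreated and 1 (6) for the difference of responses. At 1.5-fold it was 25, 5, 12 and 16 in the same order, and 15 (3) for genotype with IL-4. Cyclic loess gave 6 for IL-4 on the arrays labelled Dap12-KO, 8 for genotype with IL-4 and 2 for the difference of responses, quantile normalization 6, 7 and 2, and median centring 5 for genotype with IL-4. The median over members for genotype with IL-4 turned from −0.13 to 0.32 with cyclic loess and 0.30 with quantile normalization. With the median over a gene's probe sets the counts were 6 for IL-4 on the arrays labelled Dap12-KO and 2 for the difference of responses. For genotype untreated that setting gave 3 higher and 2 lower, against 4 and 0 by the brightest probe set. limma called 3 members, but 0 with no floor, cyclic loess, quantile normalization or no genotype term, and 1 with the median over probe sets or an intensity trend. Single probe sets turned the IL-4 difference on the arrays labelled Dap12-KO to 0.26 for Fabp3 and to 0.34 and 0.092 for Mgll. The causes were not tested. Of 114 recomputed 2-fold differences of single members, 77 were still at 2-fold, 34 were below it with the same sign and 3 turned sign. Of 24 recomputed limma calls 7 held.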
